A study of Mus musculus with 12 samples.

Results

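The genes examined here were the 10 A-kinase anchoring protein genes Akap1, Akap5, Akap6, Akap7, Akap8, Akap9, Akap10, Akap11, Akap12 and Akap13, picked by gene symbol from the 54833 genes measured. All 10 were among the 21495 genes with enough counts to be tested. The family was chosen because Akap12 had the smallest *P* of all rises after intracerebral hemorrhage (ICH) in young mice, so every value of young ICH vs. young sham is given as a description and without a *P*. The young samples did not enter the groups compared in aged ICH vs. aged sham.

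RNA was sequenced from 12 samples of perihematomal tissue dissected from the ipsilateral caudate putamen of male wild-type mice of the C57BL/6 strain, 3 samples in each of 4 groups. The young sham and young ICH mice were 8 to 10 weeks old and the aged sham and aged ICH mice 20 to 22 months old. ICH was produced by an injection of type IV collagenase, an enzyme that breaks down the vessel wall, and sham mice had the same surgery with saline in its place. Tissue was taken 24 h later, and each sample pooled 2 or 3 mice, so errors describe how much pools differ. The model bleeds because of the enzyme, and a response to the enzyme cannot be told apart from a response to blood in these groups.

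A-kinase anchoring proteins hold protein kinase A (PKA) at particular places in the cell. Each has a short helix that grips the regulatory subunits of PKA, and most also bind phosphatases, phosphodiesterases or other kinases, so that cyclic AMP (cAMP), the messenger that releases the catalytic subunits, acts locally. In neurons such anchoring places PKA beside receptors and channels at synapses, and in other cells at mitochondria, at the centrosome, in the nucleus and under the plasma membrane.

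The counts on genes ranged from 28410896 to 37785160 per sample. Of the markers of the caudate putamen, the summed level of 10 genes of striatal projection neurons ranged from 397 to 3263 CPM (counts scaled to the normalized library size), led by Pde10a with 76.5 to 870.1 CPM and Ppp1r1b with 98.8 to 588 CPM. No marker of the 12 cell types examined was at 0 in a whole group. In 3 libraries, aged ICH 1, aged ICH 2 and young ICH 3, 6 markers of the choroid plexus, a tissue outside the caudate putamen, summed to 1555, 1974 and 4071 CPM, and in the other libraries to between 9.72 and 488 CPM. Values without these 3 libraries are given below where the call changed.

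Akap12 about doubled in level after ICH at both ages, and Akap6, Akap9 and Akap11 fell in aged ICH vs. aged sham. Akap12 (ENSMUSG00000038587, chromosome 10, 4266380 to 4359470, plus strand, GRCm38) encodes gravin, a large scaffold that binds PKA and protein kinase C at the plasma membrane. In aged sham mice it was at 40.8, 42.2 and 51.0 CPM, and in aged ICH mice at 95.1, 87.5 and 92.5 CPM. Every aged ICH sample lay above every aged sham sample. The log2FC was 1.04 ± 0.09 (SE, n = 3 per group), a 2.05-fold rise, with an adjusted *P* of 0.000548 in edgeR's quasi-likelihood test over all genes. In young sham mice the gene was at 37.8, 36.5 and 36.8 CPM and in young ICH mice at 76.0, 79.9 and 93.0 CPM, which is a log2FC of 1.16 and a 2.24-fold difference. In bulk tissue, fewer or more cells of a type and less or more RNA per cell cannot be told apart. The young groups did not overlap either, which was fixed by the way the gene was chosen. The rise in aged mice was called under all 20 of the alternative fits, with log2FC from 0.98 to 1.15 and an adjusted *P* of at most 0.0119. That largest value came from the edgeR fit with only the aged groups, in which the young samples did not set the spread.

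**Figure D1:**
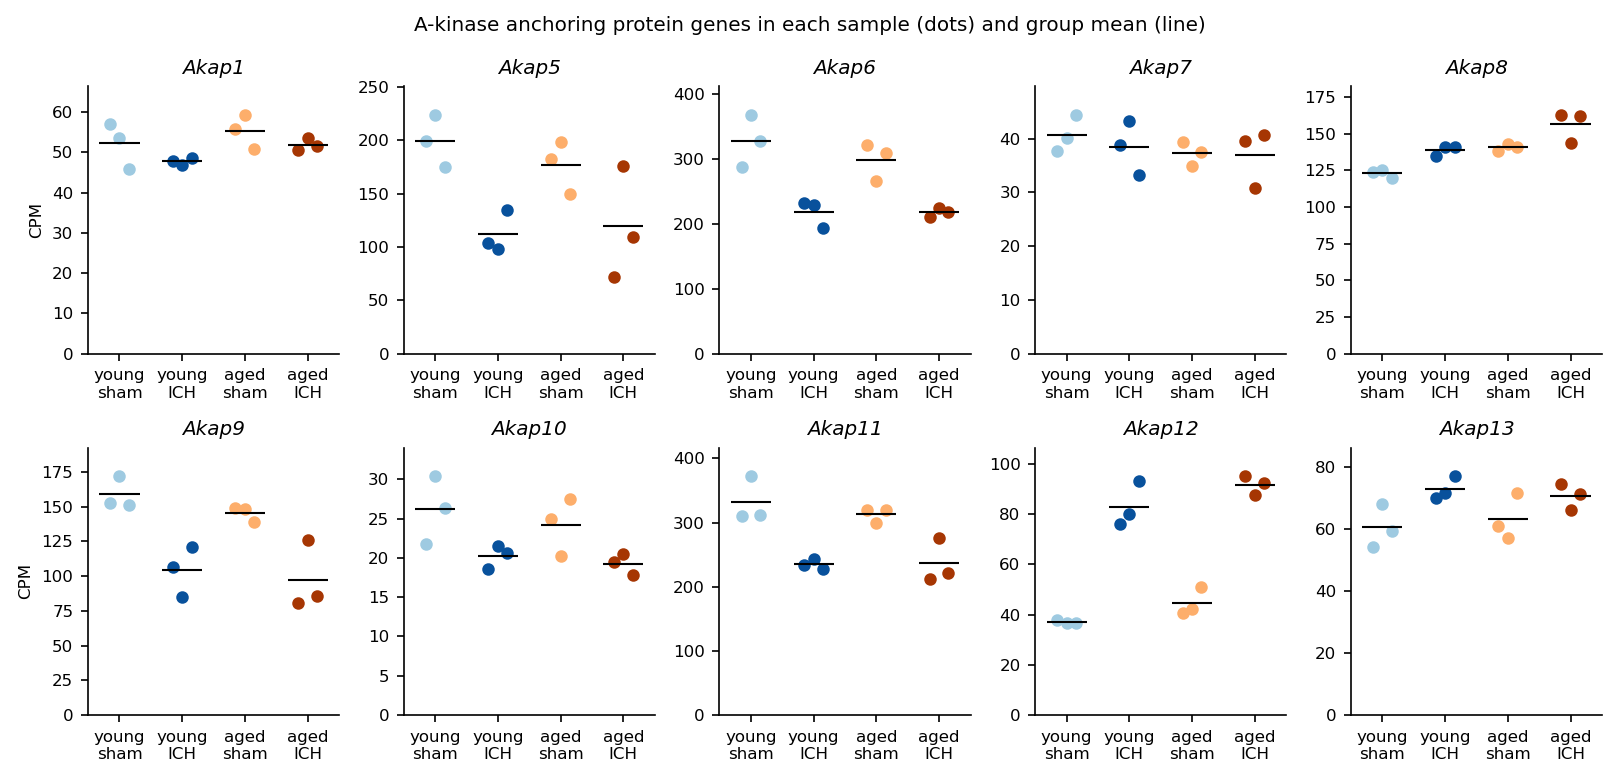
CPM of the 10 genes in each of the 12 samples (dots) with the mean of each group (line), by group, each panel on its own axis from 0. Akap12 is the only panel in which the ICH samples of both ages lie at about double the sham level, while Akap6, Akap9 and Akap11 lie lower in all ICH samples than in the sham samples of the same age.

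Among all genes tested, 6.83% were called higher (adjusted *P* under 0.05) in aged ICH vs. aged sham and 6.14% lower. Of the 10 anchoring protein genes, 1 was higher (Akap12), 3 were lower (Akap6, Akap9 and Akap11) and 6 were not called, with a median log2FC of −0.21 against 0.0018 over all genes. In young ICH vs. young sham, 9.77% of all genes were called higher and 9.13% lower. As a description, 1 gene of the family was higher there, Akap12, which the choice of the family fixed, and 3 were lower (Akap6, Akap9 and Akap11), with a median log2FC of −0.25 against 0.022 over all genes. In aged mice all ICH samples lay on one side of all sham samples for 5 of the 10 genes (Akap6, Akap8, Akap9, Akap11 and Akap12), where 35.1% of all genes tested did so. In young mice this held for 8 of the 10 genes, all but Akap1 and Akap7, against 35% of all genes.

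**Figure D2:**
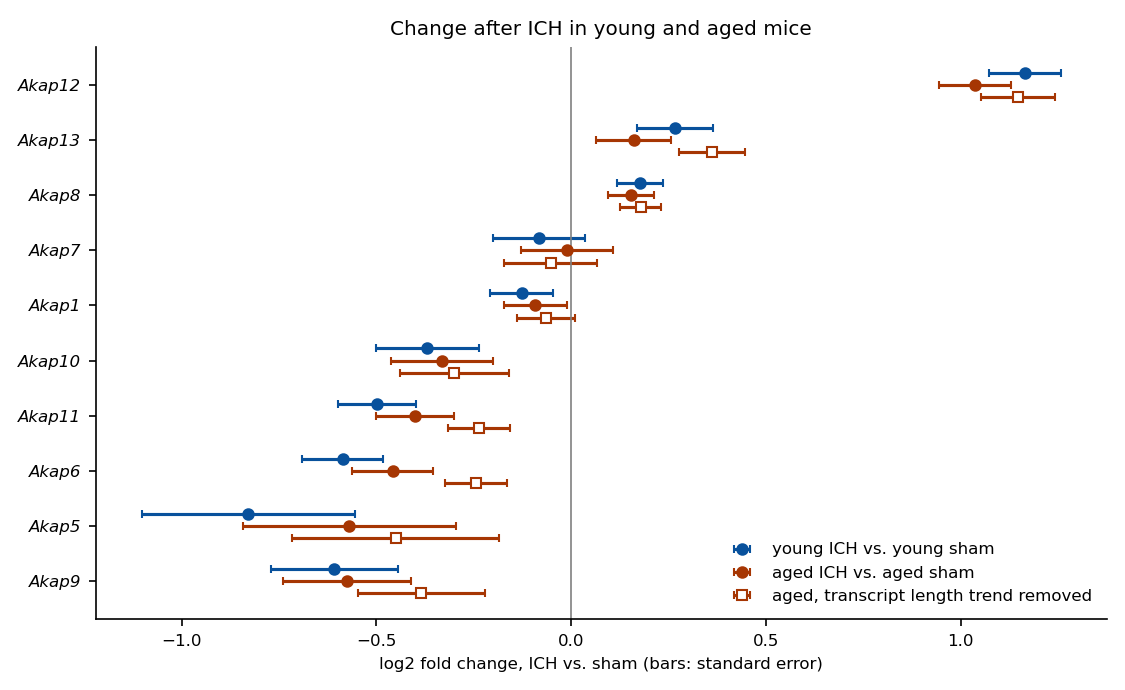
log2FC of ICH vs. sham with its standard error for the 10 genes in young mice (blue) and in aged mice (brown, filled), and in aged mice after the trend with transcript length was removed from each sample (open squares). Akap12 stands at 1.04 in aged mice, and the other genes lie between −0.58 and 0.16 there, with Akap6, Akap9 and Akap11 nearer to 0 in the open squares.

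Akap6 (ENSMUSG00000061603, chromosome 12, 52699383 to 53155599, plus strand) encodes an anchor of the nuclear envelope in muscle cells and neurons. It was at 321, 265 and 309 CPM in aged sham mice and at 211, 223 and 217 CPM in aged ICH mice, so that the aged groups did not overlap. It fell by 0.46 on the log2 scale (SE 0.10, adjusted *P* = 0.0159, edgeR). In young mice it went from 287, 368 and 326 CPM in sham to 232, 228 and 193 CPM in ICH samples, a log2FC of −0.59.

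Akap11 (ENSMUSG00000022016, chromosome 14, 78492246 to 78536808, minus strand) encodes an anchor that also binds glycogen synthase kinase 3 and protein phosphatase 1. It was at 320, 299 and 319 CPM in aged sham and at 213, 276 and 222 CPM in aged ICH mice. The groups did not overlap, with aged ICH 2 nearest to the sham samples. Akap11 fell by 0.40 on the log2 scale (SE 0.10, adjusted *P* = 0.0235, edgeR), and the log2FC in young mice was −0.50, from 311, 372 and 312 CPM to 234, 243 and 227 CPM.

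Akap9 (ENSMUSG00000040407, chromosome 5, 3928054 to 4081310, plus strand) encodes a large coiled-coil anchor of the centrosome and the Golgi apparatus. It was at 149, 148 and 139 CPM in aged sham and at 80.9, 126 and 85.7 CPM in aged ICH mice, again without overlap and with aged ICH 2 the highest. It fell by 0.58 on the log2 scale (SE 0.16, adjusted *P* = 0.0424, edgeR). In young mice the levels were 153, 172 and 151 CPM in sham and 107, 84.8 and 121 CPM in ICH samples, a log2FC of −0.61. Akap9 overlaps Cyp51 on the opposite strand by 166 of its 21350 annotated exonic bases. Cyp51 had 1770 to 3092 counts per sample. No strand setting of the counting was found in the labels or methods, so how reads in the shared bases were counted is not known.

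The calls of the 3 falls were lost more readily than that of Akap12 when 1 library was left out. Their log2FC then ran from −0.54 to −0.40 for Akap6, −0.52 to −0.33 for Akap11 and −0.80 to −0.46 for Akap9. None of the 3 was called without aged ICH 1 (adjusted *P* = 0.0744 for Akap6, 0.111 for Akap11 and 0.157 for Akap9), without aged ICH 3 (0.0538, 0.0916 and 0.137) or without aged sham 1 (0.0667, 0.0787 and 0.117). Without aged sham 3 Akap6 was the only one of them still called, with an adjusted *P* of 0.0594 for Akap11 and 0.0721 for Akap9. Akap9 was also not called without aged sham 2 (0.113) or without young ICH 1 or any 1 of the young sham samples (0.0559 to 0.0581), nor with no filter on low counts (0.111), with only the aged groups in the fit (0.082) or with a replicate block (0.0652). Without the 3 libraries high in choroid plexus markers, Akap9 was called (log2FC −0.76, adjusted *P* = 0.0295) and Akap6 (−0.45, 0.132) and Akap11 (−0.49, 0.0594) were not. That fit leaves 1 aged ICH sample, which is assumed to vary like the other groups. The log2FC of the 3 genes stayed below 0 in all 20 alternative fits. Some markers of neurons, myelin and microglia were lower as well. The 8 general neuron markers, led by Snap25 and Syt1, summed to 4660 to 5410 CPM in aged ICH and to 5886 to 6589 CPM in aged sham mice, with 1 of the 8 called lower. The 8 oligodendrocyte markers summed to 4312 to 4998 and to 5326 to 6884 CPM, with 3 called lower. Of the 8 microglia markers, P2ry12 (log2FC −0.85 ± 0.13, adjusted *P* = 0.00493, edgeR) and Siglech (−1.11 ± 0.20, 0.00686) were lower, named after their values were seen, while the summed level overlapped, at 386 to 429 CPM in aged ICH and 399 to 417 CPM in aged sham mice. Their part in the 3 falls was not tested.

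The genes that fell have long transcripts, and long genes as a whole were lower after ICH. The longest coding transcripts, in the GENCODE annotation of the same build, span 14847 bases for Akap6, 13123 for Akap9, 12597 for Akap13 and 9364 for Akap11, which places these 4 among the longest 10% of genes. Akap5 (6687 bases) and Akap12 (6195) follow, then Akap10 (3874), Akap1 (3758), Akap8 (3731) and Akap7 (2321). In aged ICH vs. aged sham, 20.4% of the 1567 genes of the longest 10% were lower and 2.81% higher, while of the 3923 genes of the shortest 25% 1.53% were lower and 11.4% higher. In young mice 31.1% of the longest and 3.29% of the shortest genes were lower.

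The median deviation of the longest genes, less that of the shortest, was between 0.0455 and 0.241 on the log2 scale in the 6 sham samples and between −0.23 and −0.0631 in the 6 ICH samples. After this trend was removed from each sample, an alternative added after the data had been seen and fitted on the 15672 genes with a transcript length, 0 of the 10 genes were lower in aged ICH vs. aged sham, against 6.61% of all genes in that fit, and 3 were higher, against 8.96%. The log2FC became −0.24 for Akap6 (adjusted *P* = 0.0607), −0.24 for Akap11 (0.0648) and −0.38 for Akap9 (0.135). Akap12 (1.15, adjusted *P* = 0.00148) was still called, and Akap13 (0.36, 0.0187) and Akap8 (0.18, 0.043) were called in addition. In young mice the same step moved the log2FC of Akap6 from −0.59 to −0.28, of Akap11 from −0.50 to −0.29, of Akap9 from −0.61 to −0.32 and of Akap13 from 0.27 to 0.54. The origin of the trend was not tested.

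**Figure D3:**
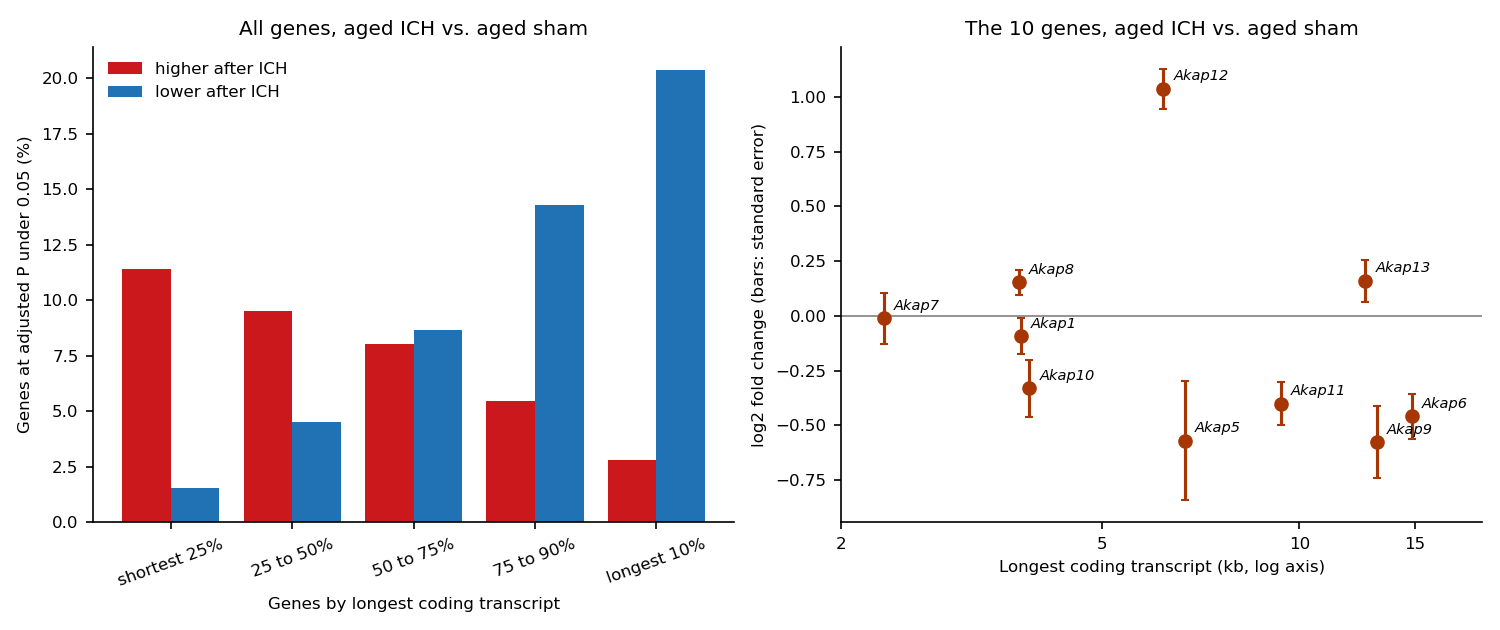
Left, percentage of all genes called higher (red) or lower (blue) in aged ICH vs. aged sham, in bins by longest coding transcript; right, log2FC of the 10 genes with its standard error against the length of the longest coding transcript (kb, log axis). The share of genes called lower goes from 1.53% in the shortest to 20.4% in the longest bin, and Akap6, Akap9, Akap11 and Akap13 lie in the longest bin, the last of them above 0.

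The sequences before the start sites of Akap6 and Akap11 are shown because both genes fell in aged mice while their windows differ in the letters searched. RefSeq windows on GRCm38.p6 of 250 bases before the start matched 9 of the 10 genes with 13 windows. Akap12 had no window. The window of Akap6 is chr12:52699133-52699382 on the plus strand, with 43.6% G and C, and the upstream one of Akap11 is chr14:78536861-78537110 on the minus strand, with 65.6%. Capitals mark TGACG on either strand, the core of the cAMP response element that the PKA substrate CREB binds, and CACGTG, an E-box. In Akap11, 2 of the TGACG matches overlap 1 CACGTG.
Akap6: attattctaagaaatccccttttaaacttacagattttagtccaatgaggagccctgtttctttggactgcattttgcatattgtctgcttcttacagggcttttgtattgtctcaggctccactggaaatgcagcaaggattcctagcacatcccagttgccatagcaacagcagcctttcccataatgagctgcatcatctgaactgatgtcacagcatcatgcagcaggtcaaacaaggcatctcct
Akap11: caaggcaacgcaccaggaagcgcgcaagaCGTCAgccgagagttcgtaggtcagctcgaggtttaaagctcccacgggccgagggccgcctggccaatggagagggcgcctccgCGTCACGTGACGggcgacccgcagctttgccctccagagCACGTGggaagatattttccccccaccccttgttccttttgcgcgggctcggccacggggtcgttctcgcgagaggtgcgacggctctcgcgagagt
The Akap11 window held TGACG 3 times and CACGTG 2 times, and the Akap6 window neither. Of 32851 promoter windows of the same length, counted with those of 1 chromosome left out, 17.8% held TGACG and 6.02% CACGTG. Among the 13 windows of the family, TGACG was found only in that of Akap11, and CACGTG also in 1 window each of Akap7 and Akap10. The whole palindrome TGACGTCA, held by 1.55% of the 32851 windows, was in none of the 13. These are matches of letters and not measured binding.

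Akap5 (ENSMUSG00000021057, chromosome 12, 76324891 to 76334153, plus strand) encodes the postsynaptic anchor that holds PKA and the phosphatase calcineurin near glutamate receptors. It had the widest spread of the family within the aged ICH group. It was at 182, 199 and 150 CPM in aged sham mice and at 72.2, 176 and 110 CPM in aged ICH mice, where aged ICH 2 lay within the sham range. The log2FC of −0.57 ± 0.27 was not called (adjusted *P* = 0.204, edgeR). It was −0.31 without aged ICH 1 (adjusted *P* = 0.47) and −0.96 without aged ICH 2 (0.018). In young mice the levels were 199, 224 and 175 CPM in sham and 104, 98.3 and 135 CPM in ICH samples, without overlap, a log2FC of −0.83.

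The level of Akap5 was set beside the striatal neuron RNA in each sample. The 10 striatal projection neuron markers summed to 397, 2081 and 834 CPM in aged ICH samples 1, 2 and 3, the same order as Akap5. They summed to 2554, 2863 and 1663 CPM in aged sham, 1354, 606 and 1872 CPM in young ICH and 3263, 2059 and 1932 CPM in young sham samples. The order of Akap5 matched that of the marker sum in 3 of the 4 groups, all but young sham. The order of Akap1 matched it in 4 of the 4, an observation made after the values were seen. Against the sum of the general neuron markers, the order of Akap5 matched in 0 of the 4 groups and that of Akap7 in 3. With 3 samples per group such matches are a description only. None of the 10 markers was called in aged ICH vs. aged sham, with a median log2FC of −1.11. The part of this difference in the level of Akap5 was not tested.

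**Figure D4:**
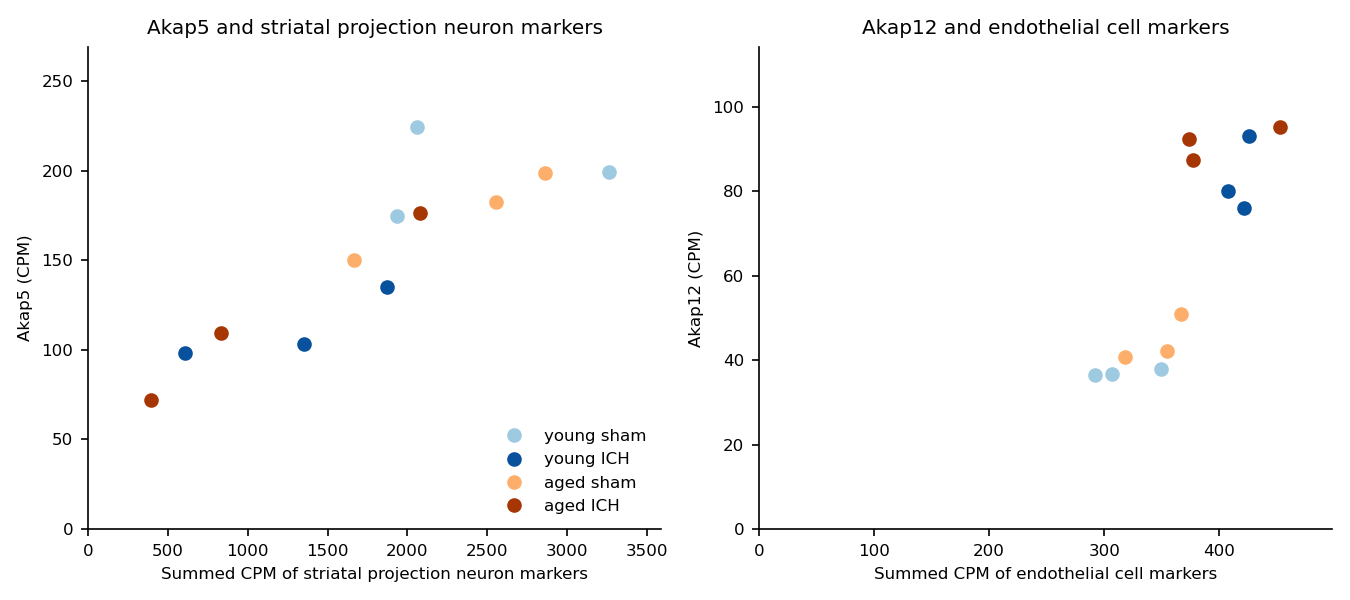
Left, Akap5 (CPM) against the summed CPM of 10 striatal projection neuron markers in the 12 samples; right, Akap12 (CPM) against the summed CPM of 8 endothelial cell markers. Akap5 is lowest, at 72.2 CPM, in the aged ICH sample with the lowest striatal sum, 397 CPM. The ICH samples lie near double the sham level of Akap12, at endothelial sums of 373 to 452 CPM against 292 to 366 CPM in the sham samples.

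Some markers of vessels and of white blood cells were also higher after ICH. The 8 endothelial markers summed to 373 to 452 CPM in aged ICH and 318 to 366 CPM in aged sham mice, and 4 of the 8 were called higher. The 8 monocyte and macrophage markers, led by Fn1 and Arg1, summed to 244 to 326 CPM against 89.3 to 173 CPM, with 3 called higher. The 8 neutrophil markers had median sums of 46.0 against 15.5 CPM. Of the 7 with enough counts to be tested, which left out Ly6g, 6 were called higher. The 8 mural cell markers summed to 229 to 253 CPM in aged ICH and 234 to 281 CPM in aged sham mice, with 1 called higher, and the 8 fibroblast markers to 138 to 169 and 136 to 188 CPM, also with 1 called higher. The 8 astrocyte markers summed to 6264 to 6621 and 5783 to 6552 CPM, with 2 higher and 1 lower. The 5 red blood cell markers summed to 24.3 to 82.0 CPM in aged ICH and 27.8 to 39.5 CPM in aged sham mice, with none called. In young mice the endothelial markers summed to 407 to 426 CPM in ICH and 292 to 350 CPM in sham samples. As a description, the order of Akap12 matched that of the endothelial sum in 2 of the 4 groups and that of the mural cell sum in 0. The monocyte and macrophage sum also had the order of Akap12 in the aged ICH and young sham samples, and the neutrophil sum in the aged sham samples only. The part of these cells in the rise of Akap12 was not tested.

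The other genes of the family changed less. Akap8 (ENSMUSG00000024045, chromosome 17, 32303672 to 32321238, minus strand) encodes a zinc finger anchor of the nuclear matrix. It was at 138, 143 and 141 CPM in aged sham and at 163, 144 and 162 CPM in aged ICH mice, without overlap, but the log2FC of 0.15 ± 0.06 was not called (adjusted *P* = 0.109, edgeR). Without aged ICH 2 it was 0.21 (adjusted *P* = 0.032). In young mice it went from 124, 125 and 120 CPM to 134, 141 and 141 CPM, a log2FC of 0.18.

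Akap10 (ENSMUSG00000047804, chromosome 11, 61871307 to 61930252, minus strand), an anchor that binds both types of PKA regulatory subunit, was at 24.9, 20.2 and 27.5 CPM in aged sham and at 19.5, 20.5 and 17.8 CPM in aged ICH mice. The aged groups overlapped, and the log2FC of −0.33 ± 0.13 was not called (adjusted *P* = 0.12, edgeR). Akap13 (ENSMUSG00000066406, chromosome 7, 75455534 to 75754609, plus strand), which is also an exchange factor that activates the GTPase RhoA, was at 60.9, 57.3 and 71.5 CPM in aged sham and at 74.6, 66.0 and 71.4 CPM in aged ICH mice. Its log2FC was 0.16 ± 0.10 (adjusted *P* = 0.304), and only the fit with the length trend removed called it. In young mice the log2FC was −0.37 for Akap10 and 0.27 for Akap13.

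Akap1 (ENSMUSG00000018428, chromosome 11, 88830792 to 88864586, minus strand), the anchor of the outer mitochondrial membrane, ranged only from 45.9 to 59.3 CPM over the 12 samples. Akap7 (ENSMUSG00000039166, chromosome 10, 25169090 to 25307870, minus strand), whose short forms tether PKA to membrane channels, ranged from 30.7 to 44.4 CPM. Their log2FC in aged ICH vs. aged sham were −0.09 ± 0.08 and −0.01 ± 0.12 (adjusted *P* = 0.491 and 0.963, edgeR), and in young mice −0.13 and −0.08. For both genes the ICH and sham samples overlapped at each age.

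Levels of different genes were compared as FPKM (fragments scaled to transcript length and to the number mapped), which account for length. Akap8 had the highest mean in all 4 groups, from 31.8 ± 0.62 FPKM (SD, n = 3) in young sham to 43.8 ± 2.95 FPKM in aged ICH mice, followed by Akap11, Akap5 and Akap6 in that order in each group. The ranges of Akap8 and Akap11 overlapped in young sham mice only. Those of Akap11 and Akap5 overlapped in all groups except young ICH, and those of Akap5 and Akap6 in both ICH groups and in neither sham group.

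Akap12 changed its place in this order. It ranked 8 of 10 in young sham mice, at 5.49 ± 0.11 FPKM, and 7 of 10 in aged sham mice, at 6.83 ± 0.93 FPKM, where its range overlapped those of Akap7 and Akap9. In young ICH mice, at 13.1 ± 1.58 FPKM, and in aged ICH mice, at 14.7 ± 0.58 FPKM, it ranked 5 of 10. In both ICH groups its range overlapped those of Akap5 and Akap6 and lay above that of Akap1. It made up 3.35% to 5.19% of the summed FPKM of the 10 genes in the sham samples and 8.97% to 11.0% in the ICH samples. The lowest levels in all groups were those of Akap10, at means of 3.09 to 3.88 FPKM, and Akap13, at 2.77 to 3.55 FPKM, with the mean of Akap10 above that of Akap13 in the sham groups and below it in the ICH groups. Their ranges overlapped in both aged groups and in neither young group.

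**Figure D5:**
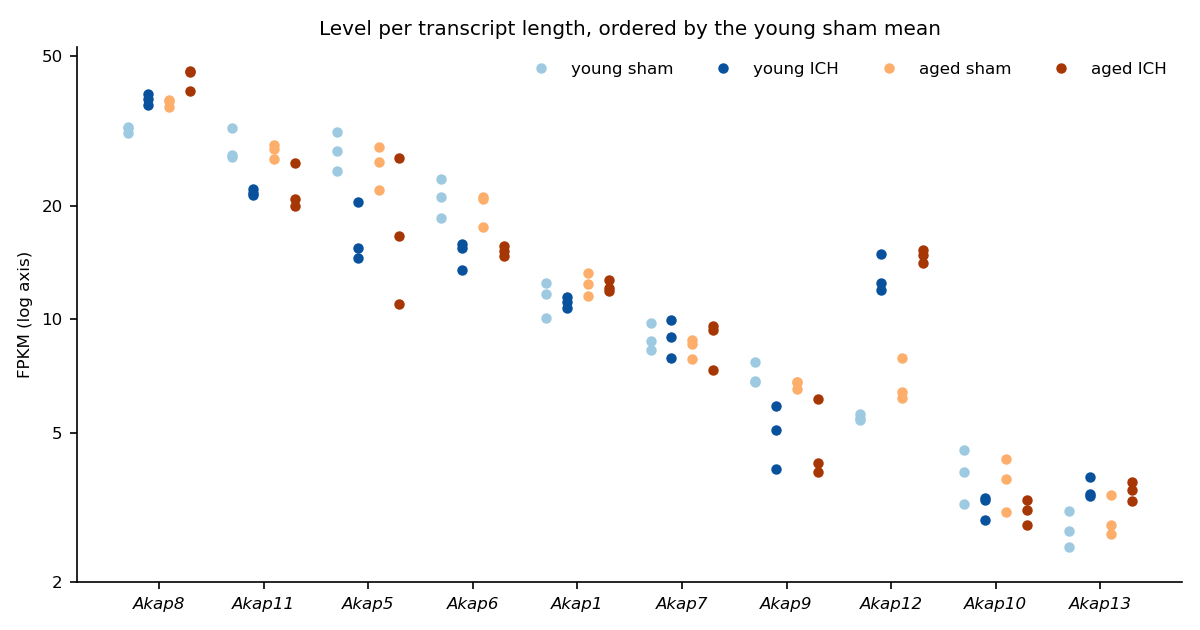
FPKM (log axis) of the 10 genes in each sample, with the genes ordered by their mean in young sham mice and the groups by colour. Akap8 is highest throughout, at 31.1 to 45.6 FPKM, and Akap12 moves from 5.38 to 7.89 FPKM in the sham samples to between 11.9 and 15.2 FPKM in the ICH samples.

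Age made no called difference to the anchoring protein genes. In aged sham vs. young sham 0.102% of all genes were called, in aged ICH vs. young ICH 0.0465% and in the interaction of age and ICH 0%, and none of the 10 anchoring protein genes was among them (edgeR). DESeq2 called 1.35%, 1.1% and 0.00465% of all genes in these comparisons, and likewise none of the 10. At an unadjusted *P* under 0.05 there were 2, 1 and 0 of the 10 in these 3 comparisons with either tool, where 12.1%, 9.41% and 2.72% of all genes passed by edgeR and 11.8%, 8.94% and 2.31% by DESeq2. By edgeR these were Akap8 in both and Akap12, whose choice used the young samples, in the first. Akap8 was higher in every aged sham than in every young sham sample and in every aged ICH than in every young ICH sample. Other members were also apart without being called. Akap12 was higher and Akap9 lower in every aged sham than in every young sham sample. Akap1 was higher in every aged ICH than in every young ICH sample. The share of all genes apart in this way between ages was not counted. The log2FC of Akap8 were 0.19 ± 0.06 (adjusted *P* = 0.245, edgeR) and 0.17 ± 0.06 (adjusted *P* = 0.399), in comparisons that share no samples, and neither passed the threshold. Akap12, for which age is described only, had a log2FC of 0.27 in aged sham vs. young sham and 0.14 in aged ICH vs. young ICH. Its response to ICH was 0.13 lower on the log2 scale in aged than in young mice, with an SE of 0.13. For the other 9 genes the log2 response in aged less that in young mice ran from −0.11 (Akap13) to 0.26 (Akap5), and the adjusted *P* of the interaction was 0.999914 for each (edgeR).

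The table held 6 further genes with an Akap symbol, and none of them was called in any comparison. Akap8l, the neighbour and relative of Akap8, had 3763 to 4938 counts and a log2FC of 0.01 ± 0.06 in aged ICH vs. aged sham (adjusted *P* = 0.91, edgeR), and Akap17b had 896 to 1173 counts and −0.03 ± 0.09 (0.856). Akap14, Akap2 and Akap3 had at most 27 counts in a sample, and Akap4, an anchor of the sperm tail, had 0 counts in all samples.

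Most genes of the partners of the anchoring proteins were not called in aged ICH vs. aged sham, where 6.83% of all genes were higher and 6.14% lower. Of the PKA subunits 33.3% were called lower and of the calcineurin genes 25%. The share lower was 22.2% for adenylyl cyclases, 20% for phosphodiesterases and 0% for PKA inhibitors, in lists of 3 to 15 genes. Of the 6 PKA subunit genes, 0 were higher and 2 lower, the catalytic subunits Prkacb (log2FC −0.36 ± 0.08, adjusted *P* = 0.0139, edgeR) and Prkaca (−0.21 ± 0.06, 0.0366), and the median log2FC was −0.24. None of the 3 genes of the PKA inhibitors was called, with a median of −0.06. Of the 4 calcineurin genes tested, the catalytic Ppp3cb was lower (−0.28 ± 0.09, adjusted *P* = 0.0475) and none higher.

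Of the 9 adenylyl cyclases, which make cAMP, 1 was higher and 2 were lower. Adcy4 rose (log2FC 0.68 ± 0.17, adjusted *P* = 0.0242, edgeR), and Adcy3 (−0.61 ± 0.08, 0.00278) and Adcy2 (−0.45 ± 0.13, 0.0385) fell. Of the 15 phosphodiesterases that can break cAMP down, 0 were higher and 3 lower, namely Pde8a (−0.57 ± 0.15, adjusted *P* = 0.0311), Pde8b (−0.56 ± 0.11, 0.00846) and Pde4d (−0.38 ± 0.10, 0.0288). The median log2FC of the 15 was −0.30.

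Anchoring proteins outside the Akap symbols went both ways, with 3 of 14 higher, 3 lower and a median log2FC of −0.03. The mitochondrial GTPase anchor Rab32 (1.11 ± 0.19, adjusted *P* = 0.00646, edgeR), the membrane and actin linker Ezr (1.02 ± 0.18, 0.00803) and the intermediate filament protein Synm (0.32 ± 0.08, 0.0277) rose. Nbea, which acts in synaptic membrane traffic (−0.45 ± 0.13, 0.0359), the actin regulator Wasf1 (−0.37 ± 0.11, 0.0405) and Gskip, which binds glycogen synthase kinase 3 (−0.24 ± 0.07, 0.0475), fell. With the length trend removed, where 8.96% of all genes were higher and 6.61% lower, the calls were 0 higher and 3 lower for the PKA subunits, 3 and 1 for the cyclases, 2 and 3 for the phosphodiesterases, 3 and 2 for the other anchors and 0 and 0 for calcineurin. Nbea, Adcy2 and Ppp3cb were then no longer called (adjusted *P* = 0.0805, 0.0542 and 0.0593).

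The genes most like Akap12 in pattern, by Pearson's *r* of log2 CPM over the 12 samples, were Il6ra (0.991), which encodes a receptor of interleukin 6, S100a13 (0.989), Ltbr (0.989), the lymphotoxin beta receptor, Plin2 (0.987), a lipid droplet protein, and Rhoc (0.987), a small GTPase. Il6ra was at 8.91 to 12.7 CPM in the sham and at 19.2 to 23.0 CPM in the ICH samples. For Akap6, the gene with the smallest *P* among the falls in aged mice, they were Kpna1 (0.989), an importer of proteins into the nucleus, Myo5a (0.988), a cargo motor, Csrnp3 (0.986), Camsap2 (0.985), which binds microtubule ends, and Adam22 (0.985), a synaptic membrane protein. These were the highest among 16823 genes, and the points share the contrast of ICH with sham. After the group means were taken out, *r* was 0.802 to 0.914 for the first 5 and 0.902 to 0.955 for the others.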

How the data were processed

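RNA-seq of 12 samples was analysed. Paired reads had been aligned to GRCm38.p6 by the authors (HISAT2) and assigned to genes (featureCounts, of the Subread package). The deposited table gives a raw count and an FPKM value per sample for 54833 genes. The labels gave the groups, and 0 columns were left unassigned. The strand setting and the treatment of reads with several alignments are not given in the sources used here.

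Counts were tested with edgeR 4.0.16 (R 4.3.3, limma 3.58.1), with TMM normalization, the quasi-likelihood test, all 12 samples in 1 fit and filterByExpr with a minimum count of 10. A call is a Benjamini-Hochberg adjusted *P* under 0.05 over the 21495 genes tested. The SE is the absolute log2FC over the square root of F. CPM use the normalized library size, with a prior count of 2 for log2 CPM. The deposited FPKM served only to order genes. The test was checked on simulated data with 200 changed genes.

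The text names the 10 genes, up to 3 genes higher and 3 lower per pathway list in aged mice, the 5 most correlated genes of Akap12 and Akap6, further Akap symbols, and leading markers. The members and lists were chosen with earlier results of these data known. Alternatives were DESeq2 1.42.0, its size factors, no filter, other samples, a replicate block and the criteria of the study (FC above 1.5 or under 0.67, unadjusted *P* under 0.05), and, added after the data were seen, 3 on choroid plexus libraries and transcript length and the criteria of the study on the DESeq2 fit.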

Additional observations from a re-analysis of the deposited data

How the results depend on the processing

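Of the 7 counts of called anchoring protein genes, the 2 between ages and that of the interaction were 0 under every alternative run. In aged ICH vs. aged sham the count higher was 1 in the main analysis, 1 to 2 with 1 library left out and 3 with the length trend removed. The count lower was 3, but 0 under the criteria of the study on the edgeR fit, 1 (Akap9, fold 0.669) under the same criteria on DESeq2, the tool of the study, 0 to 4 with 1 library left out, 1 without the 3 libraries high in choroid plexus markers and 0 with the length trend removed. In young ICH vs. young sham, on which Akap12 was chosen, so that the counts are a description only, the count higher was 1, but 2 with DESeq2, 2 with only the genes that have a transcript length, 3 with the length trend removed and 1 to 2 with 1 library left out, and the count lower was 3, but 5 with DESeq2, 2 with the length trend removed and 2 to 4 with 1 library left out. Akap9 lay at the limit of 0.67, with a fold of 0.671 by edgeR. For the other shifts the cause was not tested. No called log2FC changed its sign. With a replicate block, aged ICH vs. aged sham had 1 gene higher and 2 lower, and Akap9 was the one lost. Same-numbered samples deviated with correlations of −0.454 to 0.235, so the numbers were not read as pairs. Every member had 566 counts or more in each sample. Whether depth or the spread between 3 pools per group limited these values was not tested.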
